A study of Lactuca sativa with 36 samples.

Results

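The 150 genes described here are those of Italian lettuce, a variety of Lactuca sativa, whose leaf level was higher on day 5 than on day 0 and day 1, both with and without melatonin pretreatment, while day 0 and day 1 lay close together. They were chosen from 19584 genes by their own leaf values, taken as log2(FPKM + 1) of the gene sum, where FPKM is fragments per kilobase of transcript with the library's fragments scaled to a fixed total. A gene was kept when at least 3 leaf libraries had 1 FPKM or more (16800 genes), when the day 5 mean was above the day 0 and day 1 means in both treatments, and when the day 0 and day 1 means differed by no more than 0.5. This held for 3038 genes, and the 150 with the largest score were taken, the score being the smallest of the 4 differences between day 5 and an earlier day. Because leaf values chose the genes, their course over the days in leaves is given as a description, with no test.

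Leaves of a cadmium-treated plant receive the metal through the xylem after the roots have taken it up. Among the classes of gene that respond to heavy metals in plants are receptors and regulators of hormone signalling, protein kinases that pass signals on by phosphorylation, transcription factors, and enzymes of the phenylpropanoid pathway, which makes lignin, flavonoids and other phenolic compounds. Melatonin is an indoleamine that plants make themselves and that is applied to seedlings as a pretreatment against metal stress.

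RNA-seq libraries came from leaves (L, the aboveground part) and roots (R) of seedlings, in 12 groups of 3 libraries each, 36 in all. In the groups named CdM the nutrient solution held 1 μmol/L melatonin before 50 μmol/L CdCl2 was given, and in those named Cd it held no melatonin. The last digit is the day after CdCl2, so that LCdM5 stands for leaves with melatonin on day 5. The leaf groups are LCdM0, LCdM1 and LCdM5 and, without melatonin, LCd0, LCd1 and LCd5, and the root groups are RCdM0, RCdM1 and RCdM5 and RCd0, RCd1 and RCd5. All 12 groups were given CdCl2, and no group kept without it until day 1 or day 5 is among them, so the effect of Cd, the age of the seedlings and the day of harvest cannot be told apart. The labels give 20 days of growth before CdCl2 for 34 libraries and 21 days for replicate 2 of LCdM1 and of RCdM1. The labels call the 3 libraries of a group biological repeats, without saying whether they were grown apart, and p-values rest on the spread between these libraries. Since whole organs were used, fewer cells of a type and less RNA per cell cannot be told apart. In what follows gene 8_164760 stands for Lsat_1_v5_gn_8_164760, where the first number is the linkage group, and identifiers beginning with Novelgene are new genes of the study.

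The file holds FPKM and no read counts, so the depth behind a value is unknown and an exact 0 is given as listed at 0. The summed FPKM of a library was 2367209 to 2611849 on day 0, 1970732.5 to 2353403 on day 1 and 1729631 to 2025387 on day 5 in leaves, and 1259744 to 1426917 in roots. Root libraries labelled RCd5 replicate 3 and RCdM5 replicate 3 went against their labels. Over 1367 genes for which all RCdM libraries exceeded all RCd libraries on day 0 and on day 1, the median centred log2 level was 0.13 and 0.61 in RCdM5 replicates 1 and 2, against -0.37 and -0.30 in RCd5 replicates 1 and 2, but it was -0.30 in RCdM5 replicate 3 and 0.49 in RCd5 replicate 3. Over 1160 genes with the opposite order it was -0.02 and -0.30 in RCdM5 replicates 1 and 2, against 0.21 and 0.17 in RCd5 replicates 1 and 2, but 0.15 in RCdM5 replicate 3 and -0.29 in RCd5 replicate 3. Root counts, medians and tests that use day 5 are therefore given with and without these 2 libraries. Leaf tissue was checked with 48 photosynthesis genes, whose summed FPKM was 162027 to 351672 in leaf libraries and 797 to 3228 in root libraries. The sum of 50 genes that were at least 100 times higher in roots was 153 to 523 in leaf libraries and 41970 to 89990 in root libraries. These 50 genes were picked by that difference in these libraries, so the gap between the tissues is set by the choice. None of the 150 genes is on either list (0 of 48 and 0 of 50).

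The median of the 150 genes was above the median of all leaf genes on day 5 and below it before. Their median level was 7.28 FPKM in LCdM0, 8.67 in LCdM1 and 23.9 in LCdM5, and 8.95 in LCd0, 10.1 in LCd1 and 24.0 in LCd5, while the median of all 16800 leaf genes stayed between 17.4 and 18.2 in these groups. The day 5 level was a median 2.88 times the mean of day 0 and day 1 with melatonin (149 genes with a level above 0 before) and 2.56 times without it (147 genes). On the log2 scale the median difference was 1.35 between LCdM5 and LCdM0, 1.33 between LCdM5 and LCdM1, 1.26 between LCd5 and LCd0 and 1.22 between LCd5 and LCd1, against -0.06, -0.04, -0.07 and -0.02 over all leaf genes. 60 genes had 10 FPKM or more in every leaf group, and 26 were under 2 FPKM in every day 0 and day 1 group. On day 5, when these genes were highest, the root-rich list summed to 153 to 217 FPKM in LCdM5 and 208 to 350 FPKM in LCd5, against 214.5 to 239 FPKM in LCdM1, 309.5 to 362 FPKM in LCd1, 281 to 425 FPKM in LCdM0 and 288 to 523 FPKM in LCd0. This sum was thus not higher in the day 5 leaf libraries. The photosynthesis list summed to 162027 to 203873 FPKM in LCdM5 and 201814 to 265901 FPKM in LCd5, against 260581 to 284683 FPKM in LCdM1 and 214846 to 251297 FPKM in LCd1, and 343237 to 351672 FPKM in LCdM0 and 326220 to 345925 FPKM in LCd0. Without melatonin it was thus on day 1 already within the day 5 range, and its part in the levels of the 150 genes was not tested.

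**Figure D1:**
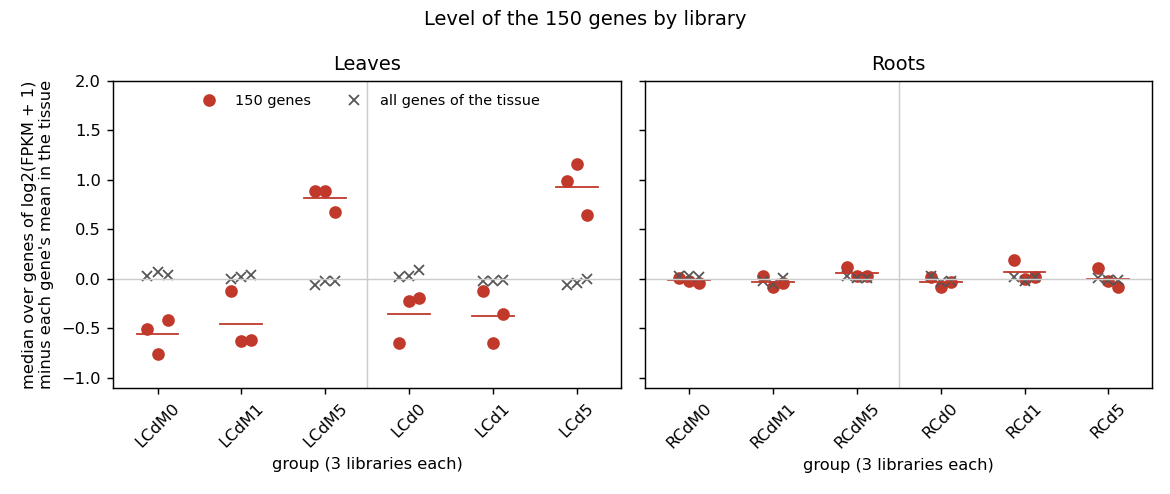
Median over genes of log2(FPKM + 1) minus each gene's own mean over the tissue, for the 150 genes (red points, 1 per library, with the group mean as a line) and for all genes of the tissue (grey crosses), in leaves on the left and roots on the right. The day 5 leaf libraries sit between 0.65 and 1.16 and the earlier leaf libraries between -0.76 and -0.12, whereas the root libraries lie between -0.08 and 0.19 on every day.

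The scores ran from 2.23 for gene 1_37901 to 0.82 for gene 9_28841, with a median of 1.02, and 83 genes scored 1 or more. Gene 1_37901 was listed at 0 in all 12 day 0 and day 1 leaf libraries. It had 7.99, 10.4 and 0 FPKM in LCdM5 and 12.8, 25.04 and 0 FPKM in LCd5, so it was present in replicates 1 and 2 of both treatments and listed at 0 in replicate 3 of both. Gene 9_61240, the second in score, had 1.32, 3.65 and 5.91 FPKM in LCdM0, 5.700, 0.771 and 4.09 in LCdM1 and 10.1, 14.9 and 20.9 in LCdM5, against 1.26, 0 and 0.747 in LCd0, 1.07, 0 and 1.73 in LCd1 and 1.86, 5.797 and 14.8 in LCd5. Within each treatment its day 5 libraries were above the earlier ones, but LCd5 replicate 1 only just, and that library was below several LCdM0 and LCdM1 libraries. Gene 6_8820, listed under protein binding, had 12.96, 9.88 and 8.58 FPKM in LCdM0, 11.1, 9.900 and 12.04 in LCdM1 and 37.98, 58.1 and 30.4 in LCdM5, against 14.2, 14.6 and 12.9 in LCd0, 15.4, 13.6 and 11.7 in LCd1 and 81.2, 69.8 and 43.6 in LCd5. All of its day 5 libraries were above all of its earlier ones, 3.92 times their mean with melatonin and 4.72 times without.

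The other genes with the largest scores had no term in the tables of the study, apart from genes 8_164760, 5_177360, 8_24961 and 7_26820 described with their groups. Gene 3_6681 was abundant, with 214, 57.2 and 192 FPKM in LCdM0, 333, 127 and 146 in LCdM1 and 989.9, 1085 and 662 in LCdM5, against 182, 404 and 365 in LCd0, 299, 253 and 425 in LCd1 and 1010, 1613 and 747 in LCd5. Each day 5 library exceeded every earlier library of its treatment. Gene 9_77320 averaged 23.3 ± 14.7 FPKM in LCdM0, 22.2 ± 6.93 in LCdM1 and 78.8 ± 34.96 in LCdM5, and 19.2 ± 8.89 in LCd0, 20.4 ± 10.5 in LCd1 and 58.1 ± 15.4 in LCd5 (SD, n = 3 each). Gene 8_55360 averaged 39.3 ± 20.3 FPKM in LCdM5 against 5.69 ± 1.44 in LCdM0, and 30.9 ± 16.6 FPKM in LCd5 against 9.26 ± 3.93 in LCd0 (SD, n = 3 each). Among those with a 0 in several libraries, Novelgene1585 had 0, 6.68 and 9.26 FPKM in LCdM0, 0, 13.5 and 4.58 in LCdM1 and 41.4, 17.7 and 31.7 in LCdM5, against 0, 11.8 and 0 in LCd0, 5.02, 0 and 0 in LCd1 and 20.3, 19.9 and 0 in LCd5. Its LCd5 replicate 3 was at 0, like most of its LCd0 and LCd1 libraries. Gene 5_162741 likewise had 0 in 7 of its 12 earlier libraries and 5.11, 15.9 and 10.6 FPKM in LCdM5 and 8.88, 7.62 and 7.21 FPKM in LCd5.

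The 5 genes just inside the limit, 8_143020, 4_120460, 8_147781, Novelgene0256 and 9_28841, scored 0.82, and the 5 just outside it, 1_4221, 1_53840, 8_124520, 6_48640 and 7_56801, scored 0.81. The limit thus runs through a continuous series of scores.

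Of the 150 genes, 130 have an identifier of the lettuce reference and 20 are new genes (13.3%, against 11.9% of all leaf genes). A term or description was found for 60 of them, in tables that the study drew up from these same libraries, and 90 were without any. The shares of all leaf genes with each term were not counted, so the numbers of genes by term are descriptions. Plant hormone signal transduction was the pathway of 4 genes, and all 4 had every day 5 library above every earlier library of the same treatment, as had 82 of the 150 genes and 2.99% of all leaf genes. Gene 8_164760, which also carries terms for kinase activity and response to stimulus, had 48.3, 31.03 and 41.1 FPKM in LCdM0, 37.8, 37.1 and 37.4 in LCdM1 and 134, 174 and 87.7 in LCdM5, against 50.5, 56.5 and 46.9 in LCd0, 43.4, 44.1 and 41.1 in LCd1 and 183, 187 and 152 in LCd5. Its day 5 mean was 3.395 times that of the earlier days with melatonin and 3.69 times without, and no day 5 library overlapped an earlier one. Gene 7_79540, with transcription factor terms, had 28.1, 21.7 and 30.6 FPKM in LCdM0, 33.2, 22.4 and 23.02 in LCdM1 and 78.2, 98.3 and 65.05 in LCdM5, against 23.7, 30.6 and 35.3 in LCd0, 44.7, 22.1 and 25.6 in LCd1 and 81.6, 76.7 and 55.9 in LCd5. LCd5 replicate 3 was the lowest of its day 5 libraries and LCd1 replicate 1 the highest of its earlier ones, 55.9 against 44.7 FPKM.

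Gene 6_65141, with protein kinase terms, had 30.2, 30.98 and 32.3 FPKM in LCdM0, 35.2, 34.1 and 30.6 in LCdM1 and 71.3, 72.9 and 50.4 in LCdM5, against 31.6, 35.96 and 39.4 in LCd0, 38.98, 25.9 and 34.9 in LCd1 and 65.8, 90.5 and 60.1 in LCd5. The day 5 mean was 2.01 times the earlier one with melatonin and 2.095 times without, and the groups did not overlap. Gene 5_149161, for which the pathway is the only term, had 10.6, 8.88 and 11.8 FPKM in LCdM0, 10.6, 12.8 and 11.8 in LCdM1 and 36.7, 18.4 and 15.1 in LCdM5, against 10.9, 11.9 and 16.7 in LCd0, 9.800, 13.8 and 10.8 in LCd1 and 38.7, 41.3 and 43.4 in LCd5. LCdM5 replicates 2 and 3 were below all LCd5 libraries, while LCdM5 replicate 1 was close to them. Genes 6_65141 and 5_149161 score below the 30 annotated genes that the rule for names takes and are given because the pathway has only 4 genes here.

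**Figure D2:**
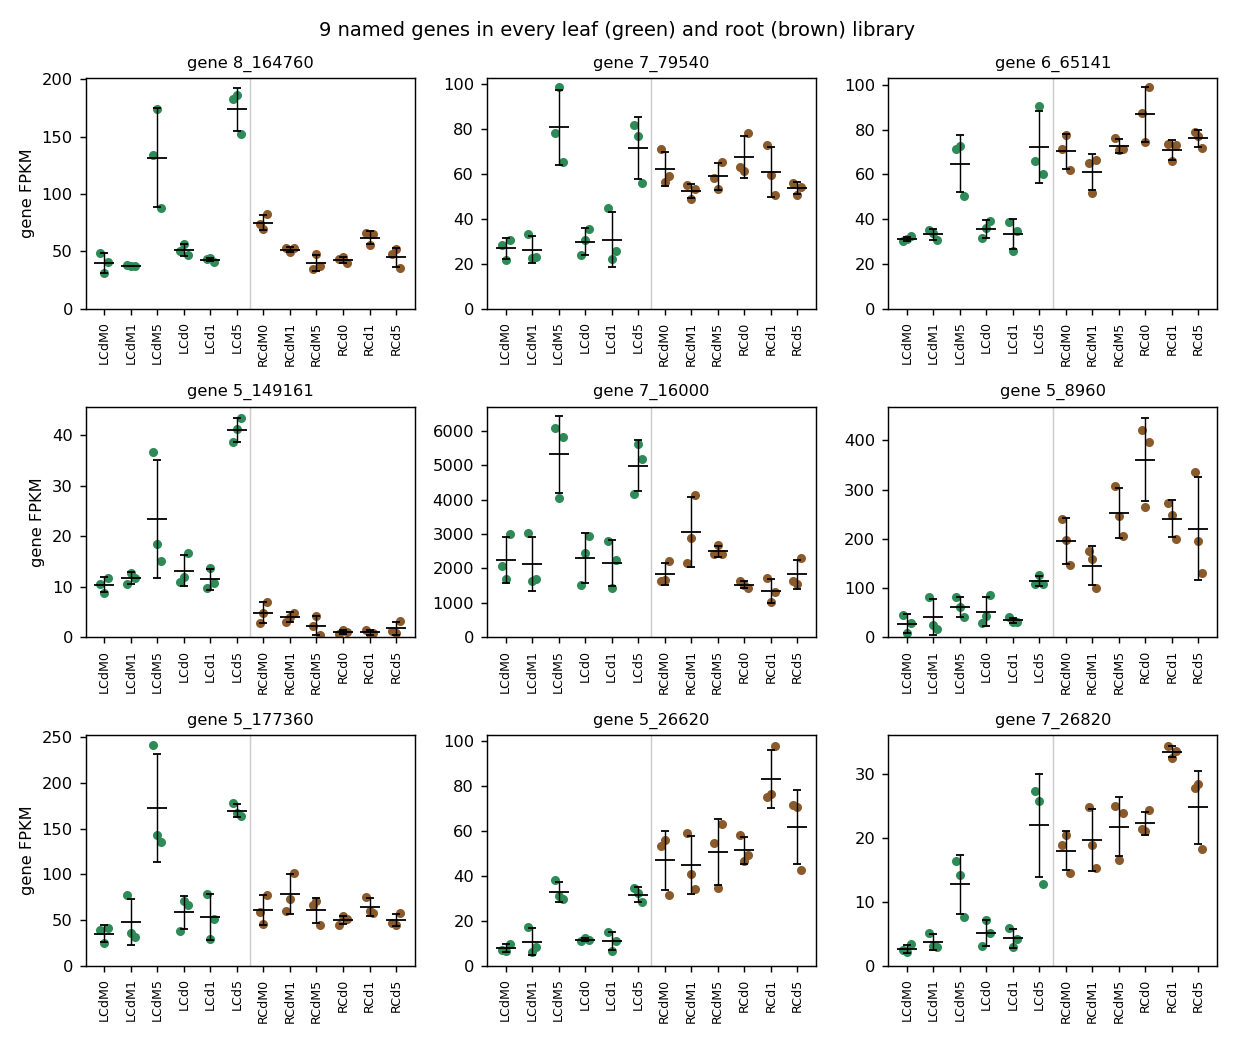
Gene FPKM of 9 named genes in each of the 36 libraries (points, with the mean as a bar and the SD as whiskers, n = 3 per group), leaf groups in green on the left and root groups in brown on the right of each panel. In leaves the day 5 groups stand above day 0 and day 1 in both treatments, for example 134, 174 and 87.7 FPKM in LCdM5 against 48.3, 31.0 and 41.1 FPKM in LCdM0 for gene 8_164760. In roots the same gene had 34.9, 47.5 and 37.2 FPKM in RCdM5 against 73.5, 69.5 and 82.4 FPKM in RCdM0.

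Terms for kinase activity or phosphorylation were attached to 10 genes, 8_164760 and 6_65141 among them. Gene 7_26820, a protein kinase by its terms, had 2.497, 2.11 and 3.398 FPKM in LCdM0, 5.14, 3.17 and 2.899 in LCdM1 and 16.4, 14.2 and 7.62 in LCdM5, against 3.05, 7.12 and 5.07 in LCd0, 5.88, 2.88 and 4.17 in LCd1 and 27.4, 25.8 and 12.8 in LCd5. All day 5 libraries were above all earlier ones, and the level was 3.98 times the earlier mean with melatonin and 4.68 times without. The kinase genes 8_75581, 8_32880, 1_112541 and 2_119480 averaged 68.1, 32.03, 19.7 and 29.4 FPKM in LCdM5 against 18.6, 7.24, 7.097 and 13.2 FPKM in LCdM0. Without melatonin they averaged 68.4, 44.2, 23.1 and 33.3 FPKM in LCd5 against 30.6, 19.1, 8.63 and 15.2 FPKM in LCd0. Gene 2_119480 varied little between libraries of a group, with 31.4, 30.5 and 26.4 FPKM in LCdM5 and 31.4, 38.7 and 29.8 FPKM in LCd5, whereas 8_32880 in LCd5 replicate 3 (20.9 FPKM) lay within its LCd0 range. The other members of this group were 7_102060 and 5_153281, and gene 2_73740, which is listed as a phosphoenolpyruvate carboxykinase, an enzyme of carbon metabolism and not a protein kinase. Gene 2_73740 was chosen for mention after its values were seen, and it had 9.51, 12.1 and 10.2 FPKM in LCdM0, 10.5, 8.63 and 7.79 in LCdM1 and 24.4, 26.7 and 24.1 in LCdM5, against 9.69, 11.99 and 12.3 in LCd0, 10.1, 9.79 and 9.496 in LCd1 and 20.3, 24.9 and 19.6 in LCd5. The spread within its groups was small, and its day 5 libraries lay well above all earlier ones.

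Transcription terms were attached to 12 genes, 7_79540 among them. Gene 5_177360, a DNA-binding transcription factor by its terms, had 38.8, 24.6 and 41.8 FPKM in LCdM0, 77.2, 35.4 and 31.1 in LCdM1 and 241, 142 and 135 in LCdM5, against 37.5, 71.02 and 66.9 in LCd0, 78.8, 28.9 and 51.1 in LCd1 and 177, 168 and 163 in LCd5. Its lowest day 5 library was above its highest earlier one. Gene 5_26620, also a transcription factor by its terms, had 6.902, 6.502 and 9.85 FPKM in LCdM0, 17.5, 6.103 and 8.54 in LCdM1 and 38.1, 31.02 and 29.7 in LCdM5, against 11.1, 12.3 and 11.3 in LCd0, 14.9, 6.69 and 11.2 in LCd1 and 34.5, 32.5 and 28.3 in LCd5. Here too day 5 stood clear of the earlier days, at 3.57 times their mean with melatonin and 2.82 times without. Gene 7_49061, which carries terms for regulation of RNA synthesis, had 15.1, 19.4 and 13.9 FPKM in LCdM0, 8.65, 14.3 and 20.7 in LCdM1 and 45.9, 46.2 and 25.2 in LCdM5, against 15.2, 15.9 and 18.04 in LCd0, 16.4, 14.96 and 13.8 in LCd1 and 74.05, 69.6 and 48.7 in LCd5. It was 2.55 times the earlier mean with melatonin and 4.08 times without, and its groups did not overlap. The low gene 8_24961 had 0.759, 1.58 and 0.379 FPKM in LCdM0, 0.539, 1.06 and 0.329 in LCdM1 and 3.499, 9.85 and 2.06 in LCdM5, against 0.538, 0.211 and 0 in LCd0, 0.289, 0.722 and 0.162 in LCd1 and 4.69, 3.501 and 3.88 in LCd5. It was under 2 FPKM in every earlier library and above 2 FPKM in every day 5 library. Genes 3_32080 and 9_8621 averaged 14.00 and 2.06 FPKM in LCdM5 against 5.003 and 0 FPKM in LCdM0, and 23.3 and 3.798 FPKM in LCd5 against 4.64 and 0.558 FPKM in LCd0. Gene 2_39760 varied between 0.0886 and 18.3 FPKM within LCdM0 alone, a range that reached its day 5 levels.

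The phenylpropanoid, flavonoid or stilbenoid pathways were given for 5 genes. Gene 7_16000 (phenylpropanoid biosynthesis) was the most abundant of the 150, with 2072, 1684 and 3000 FPKM in LCdM0, 3040, 1639 and 1701 in LCdM1 and 6076, 4038 and 5827 in LCdM5, against 1511, 2452 and 2936 in LCd0, 2789, 1447 and 2234 in LCd1 and 4172, 5625 and 5176 in LCd5. Its day 5 libraries were 2.43 times the earlier mean with melatonin and 2.24 times without, and all exceeded all earlier libraries. Gene 5_8960, listed in all of these pathways, had 45.6, 8.399 and 29.2 FPKM in LCdM0, 82.8, 24.3 and 16.1 in LCdM1 and 81.8, 62.1 and 41.2 in LCdM5, against 28.6, 42.6 and 85.2 in LCd0, 41.04, 31.5 and 30.5 in LCd1 and 109, 126 and 109 in LCd5. With melatonin its groups overlapped, since LCdM1 replicate 1 was above every LCdM5 library, and without melatonin they did not. Gene 4_121381 (stilbenoid, diarylheptanoid and gingerol biosynthesis) had 7.61, 7.096 and 12.8 FPKM in LCdM0, 20.1, 9.39 and 5.900 in LCdM1 and 31.7, 19.9 and 22.04 in LCdM5, against 6.81, 9.35 and 9.74 in LCd0, 16.5, 6.48 and 10.1 in LCd1 and 31.4, 29.9 and 24.8 in LCd5. LCdM1 replicate 1 reached the level of LCdM5 replicate 2, so the groups overlapped with melatonin and not without it. Genes 1_23861 (stilbenoid list) and 4_94000 (flavonoid biosynthesis, with heme binding as in cytochrome P450 enzymes) lie below the 30 annotated genes of the rule and are named because the group is small. Gene 1_23861 averaged 165 ± 38.1 FPKM in LCdM5 against 49.6 ± 5.86 in LCdM0, and 99.8 ± 19.6 FPKM in LCd5 against 41.1 ± 11.01 in LCd0 (SD, n = 3 each). Gene 4_94000 averaged 12.5 ± 9.204 FPKM in LCdM5 against 4.05 ± 1.44 in LCdM0, and 19.9 ± 0.638 FPKM in LCd5 against 4.88 ± 1.72 in LCd0 (SD, n = 3 each). Its LCdM5 libraries had 23.1, 7.02 and 7.37 FPKM, so replicate 1 carried most of that mean.

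Metal or iron ion binding was a term of 7 genes and response to stimulus of 6, some of them named above for other terms. Gene 6_72741, listed under response to stimulus, averaged 12.8 ± 4.45 FPKM in LCdM0, 15.5 ± 8.701 in LCdM1 and 58.9 ± 13.1 in LCdM5, and 22.6 ± 7.34 in LCd0, 37.2 ± 28.3 in LCd1 and 92.98 ± 45.2 in LCd5 (SD, n = 3 each). Gene 9_105960 (biosynthesis of secondary metabolites) had 627, 1824 and 904 FPKM in LCdM5 against 316, 125 and 372 in LCdM0, and 1326, 1143 and 558 FPKM in LCd5 against 228, 564 and 667 in LCd0. Without melatonin the groups overlapped, because LCd5 replicate 3 was below LCd0 replicates 2 and 3. Gene 9_90540, with sulfur amino acid biosynthesis terms, a route that feeds the metal-binding thiols of plants, averaged 66.7 ± 13.2 FPKM in LCdM5 against 19.03 ± 4.597 in LCdM0, and 49.3 ± 7.404 FPKM in LCd5 against 24.04 ± 9.75 in LCd0 (SD, n = 3 each). Novelgene0767, described as a TauD/TfdA dioxygenase of the iron-dependent kind, averaged 28.5 ± 8.501 FPKM in LCdM5 against 11.2 ± 2.86 in LCdM0, and 29.1 ± 7.72 FPKM in LCd5 against 10.5 ± 1.33 in LCd0 (SD, n = 3 each). Novelgene1129, described as a DnaJ domain protein, the type of co-chaperone that works with Hsp70, stayed under 5 FPKM in all leaf libraries. Gene 1_54721, a microtubule motor by its terms, had 24.9, 18.7 and 0.733 FPKM in LCd5 and 0.284, 0.755 and 13.3 FPKM in LCd0, so that replicate 3 ran against the other libraries in both groups. Gene 2_99080, listed under the cytochrome b6f complex of the photosynthetic electron chain, was similarly uneven, with 20.6, 3.79 and 33.03 FPKM in LCd5 and 2.68, 11.6 and 5.19 FPKM in LCdM5.

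Gene 6_69660, with terms for ATP-driven transmembrane transport, was low in leaves, with 5.24, 1.902 and 2.902 FPKM in LCdM5 against 0.461, 0.317 and 1.08 in LCdM0, and 2.18, 1.37 and 4.21 FPKM in LCd5 against 0.0957, 0.427 and 0.696 in LCd0. Its day 5 libraries did not overlap the day 0 ones in either treatment. Genes 5_126041 (protein binding) and 5_26000 (metal ion binding) averaged 288 and 88.99 FPKM in LCdM5 against 84.5 and 18.6 FPKM in LCdM0, and 240.3 and 61.2 FPKM in LCd5 against 88.5 and 23.6 FPKM in LCd0. Genes 8_112021 and 2_108880 had lower levels, 11.9 and 11.2 FPKM in LCdM5 against 2.93 and 2.65 FPKM in LCdM0. Without melatonin they had 12.8 and 9.63 FPKM in LCd5 against 4.75 and 3.58 FPKM in LCd0.

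The 19 gene lists taken from the tables of the study were searched for the 150 genes, which were chosen from 16800 leaf genes. The hormone pathway held 4 of its 38 genes measured in leaves and the stilbenoid list 3 of 16. The lists for ubiquitin-protein transferase activity (18 genes), Golgi vesicle transport (10), growth factor activity (4), copper ion binding (26) and plant-pathogen interaction (28) held 1 each, genes 1_47161, 4_120460, 2_39121, 8_71281 and 9_103760. The other 12 lists held none. Among them were detoxification (2 genes), autophagosome assembly (3), transition metal ion transport (10), peroxidase activity (11), chitinase activity (9) and cellulose synthase activity (12). They also included cytokinin dehydrogenase activity (2), amino acid binding (7), circadian rhythm (8), glycolysis or gluconeogenesis (28), sequence-specific DNA binding (8) and ribosome biogenesis (17). The study picked these lists on these libraries, so their direction is not independent evidence. Over the whole hormone list the median log2 difference was 0.78 between LCdM5 and LCdM0, 0.69 between LCdM5 and LCdM1, 0.63 between LCd5 and LCd0 and 0.56 between LCd5 and LCd1. Over the ubiquitin transferase list it was 0.67, 0.65, 0.76 and 0.96 in the same order, against medians of all leaf genes between -0.07 and -0.02. Over the stilbenoid list it was 1.10, 0.77, 0.28 and -0.04, so the median of that list did not rise between LCd1 and LCd5. The circadian rhythm list, with none of the 150 genes, had -0.78, -0.78, -1.24 and -0.93, and the ribosome biogenesis list -0.39, -0.72, -0.06 and -0.83. In the same order, the detoxification list had 0.38, 0.46, 0.60 and 0.88. The autophagosome assembly list had -0.23, 0.06, 0.16 and 0.19, and the transition metal ion transport list -0.77, -0.69, -0.51 and -0.71.

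The separation of day 5 from the earlier days varied between the genes. All 3 day 5 libraries were above all 6 earlier ones in 107 genes with melatonin (7.76% of all leaf genes) and in 100 genes without it (7.38%). This was so in both treatments for 82 genes (2.99% of all leaf genes), and for 64 genes all 6 day 5 libraries were above all 12 earlier ones (2.07%). These counts describe the choice of the genes and carry no further weight. 126 genes had no 0 in any leaf library (92.5% of all leaf genes had none), and 8 were at 0 in at least 1 day 5 library. Without LCd5 replicate 3 the 82 genes became 100. Fewer libraries separate more easily for any gene, and the share of all leaf genes was not counted for this setting. LCd5 replicate 3 was the lowest LCd5 library for 98 of the 150 genes (for 32.7% of all leaf genes). In the same way LCdM1 replicate 1 was the highest of its group for 102 genes (35.4% of all), LCd1 replicate 1 for 91 (35.4%), and LCd0 replicate 1 was the lowest for 95 (38.8%). The levels of the 150 genes thus also moved together between libraries of a group, and the cause was not tested.

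**Figure D3:**
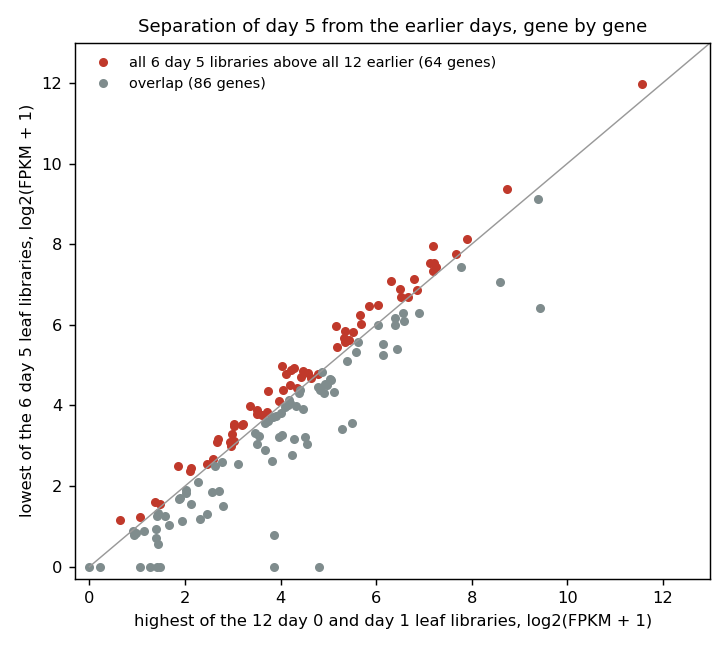
Each point is 1 of the 150 genes, with the highest of its 12 day 0 and day 1 leaf libraries on the horizontal axis and the lowest of its 6 day 5 leaf libraries on the vertical axis, both as log2(FPKM + 1). The 64 red genes lie above the line of equality, and the grey genes lie on or below it, 8 of the 150 at 0 on the vertical axis.

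The choice was repeated with 1 replicate number left out of all 6 leaf groups, and the left-out libraries were then read. Without replicates 1, 2 and 3 the new choices of 150 genes shared 68, 76 and 71 with the original one. These newly chosen genes, and not the original 150, were read in the libraries not used. Their level on day 5 was above both earlier days with melatonin for 133 of the 150 newly chosen genes in replicate 1 (32.7% of all leaf genes), 138 in replicate 2 (35.3%) and 129 in replicate 3 (34.4%). Without melatonin it was so for 122 (31.4%), 135 (33.6%) and 98 (30.8%) genes. The median log2 difference between day 5 and the earlier days was 1.06, 1.15 and 1.05 with melatonin and 0.96, 1.28 and 0.59 without it, so replicate 3 of the Cd leaves showed the smallest difference. The closeness of day 0 and day 1 was less well kept, since their difference was within 0.5 in 64, 95 and 87 of the 150 newly chosen genes with melatonin and in 60, 67 and 82 without. Leaving out 1 leaf library at a time kept 107 to 137 of the 150, and 33 genes were chosen every time, among them 1_37901, 6_8820, 8_164760, 8_24961, 7_26820, 7_79540, 7_16000, 6_65141 and 2_73740.

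Leaf levels with and without melatonin are set side by side here, but they cannot show what melatonin did to these genes. The same leaf values chose them, and the rule took only genes that were high on day 5 in both treatments. In limma, with p-values adjusted by the Benjamini-Hochberg method over all 16800 leaf genes, none of the 150 genes had an adjusted p under 0.05 between LCdM5 and LCd5 (0 genes, against 0.0774% of all leaf genes, 0.0238% higher and 0.0536% lower), between LCdM1 and LCd1 (0%) or between LCdM0 and LCd0 (0.0238%). At an unadjusted p under 0.05 there were 16 genes on day 5 (9.11% of all leaf genes), 3 on day 1 (4.51%) and 6 on day 0 (5.86%), of 150 each. Without LCdM5 replicate 1, 2 genes passed on day 5, and the share of all leaf genes in that setting is not given here. Gene 8_142961, which had the smallest adjusted p on day 5, had 99.7, 85.8 and 167 FPKM in LCdM5 against 22.2, 37.2 and 40.7 FPKM in LCd5. All of its LCdM5 libraries were above all of its LCd5 libraries. Gene 5_149161 of the hormone pathway had the opposite order, with every LCdM5 library below every LCd5 library. Neither gene passed, and as these leaf values chose the genes, both orders are descriptions only.

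Most of the 150 genes were expressed in roots on every day. 133 had 1 FPKM or more in every root group, and 44 had in every root group a mean at or above their LCd5 level (43 without replicate 3 of RCdM5 and RCd5). The shares of all leaf genes that met these conditions were not counted, so these counts do not set apart the 150 genes. Their median level was 19.7 FPKM in RCdM0, 21.3 in RCdM1 and 22.8 in RCdM5, and 19.5 in RCd0, 23.1 in RCd1 and 23.1 in RCd5, where the median of the 16800 leaf genes was 15.8 to 17.1 FPKM. The day 5 medians without replicate 3 of RCdM5 and RCd5 were 22.1 and 23.1 FPKM. With melatonin, the mean was higher in roots than in leaves for 119 of the 150 genes on day 0 (79.3%, against 50.4% of all leaf genes), for 117 on day 1 (78.0% against 50.1%) and for 69 on day 5 (46.0% against 50.8%). Without melatonin these numbers were 109 (72.7% against 48.9%), 116 (77.3% against 51.0%) and 66 (44.0% against 50.8%). Without replicate 3 of RCdM5 and RCd5, the day 5 numbers were 67 and 62. The median log2 difference of roots minus leaves was 1.14, 1.06 and -0.14 with melatonin and 0.93, 1.01 and -0.18 without it. Without those 2 libraries the day 5 medians were -0.19 in both treatments. The leaf values of this comparison are those that chose the genes, so its course over the days is largely set by the choice and is a description. Only the root values took no part in it.

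**Figure D4:**
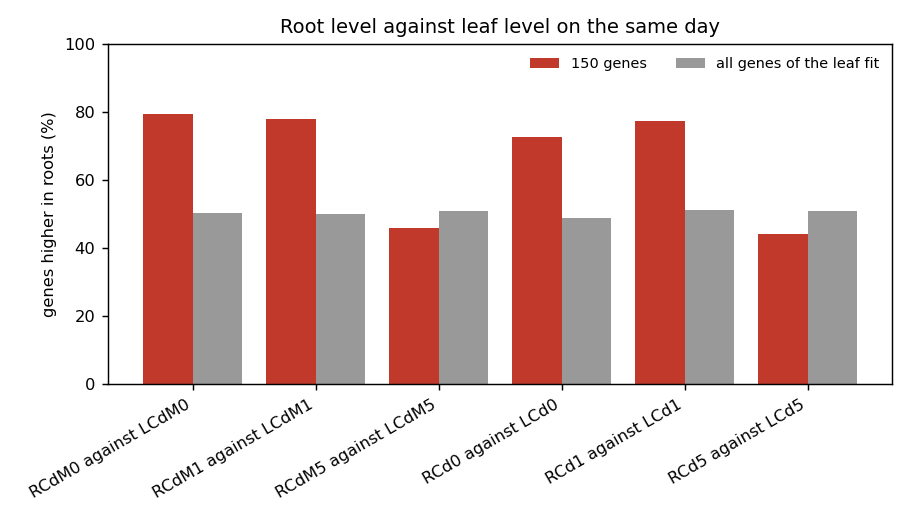
Percent of genes whose mean FPKM was higher in roots than in leaves of the same treatment and day, for the 150 genes (red bars) and for all 16800 leaf genes (grey bars). The red bars stand at 72.7% to 79.3% on day 0 and day 1 and at 44.0% to 46.0% on day 5, while the grey bars stay between 48.9% and 51.0%; the leaf values are those that chose the genes.

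All 3 root libraries were above all 3 leaf libraries in 98 genes for RCdM0 against LCdM0 (32.3% of all leaf genes), 89 for day 1 (31.0%) and 31 for day 5 (30.2%), and without melatonin in 84 (30.1%), 88 (32.5%) and 38 (32.1%). The reverse order held for 11 (33.2%), 13 (32.5%) and 54 (30.2%) genes with melatonin and for 17 (33.4%), 17 (33.0%) and 55 (32.7%) without it. When replicate 3 of RCdM5 and RCd5 was left out, the roots were above the leaves on day 5 in 36 genes with melatonin (33.7% of all leaf genes) and 45 without (35.9%), and the leaves above the roots in 59 (32.4%) and 58 (35.8%). The highest root levels were those of genes 7_16000, 8_143020 and 6_72741, with means of 2017, 1162 and 479.7 FPKM over all root libraries. The identifier of gene 8_143020 is close to that of 8_142961, also among the 150. Gene 8_143020 had 1073, 2953 and 435 FPKM in RCdM5 and 566, 659 and 2511 FPKM in RCd5. Replicate 3 of each group was again at the level of the other treatment. The 5 genes with under 1 FPKM in all root groups were 6_94641, 9_66461, 6_2400, 5_108800 and Novelgene0073, and gene 6_2400 was listed at 0 in all 18 root libraries. In leaves Novelgene0073 had 8.73, 5.39 and 6.42 FPKM in LCdM0, 10.1, 4.67 and 7.69 in LCdM1 and 19.2, 12.3 and 14.5 in LCdM5, against 7.19, 5.695 and 8.45 in LCd0, 6.37, 3.81 and 4.62 in LCd1 and 9.04, 9.63 and 27.7 in LCd5. Its LCd5 replicate 3 was the highest leaf library, the opposite of most of the 150 genes. Gene 5_108800 rests on LCdM5 replicate 2 and LCd5 replicate 2, with 0, 34.3 and 1.88 FPKM in LCdM5 and 0, 15.4 and 0 FPKM in LCd5.

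In roots, the share of genes with a day 5 level above both earlier days was near that of all root genes without melatonin. It was also near for both treatments together. With melatonin the share was higher, and this difference was not tested. Of the 145 genes that could be tested in roots (the other 5 did not reach 1 FPKM in 3 root libraries), the day 5 mean was above both earlier means in 62 with melatonin (42.8%, against 35.2% of all root genes), in 44 without (30.3% against 32.3%) and in 20 in both (13.8% against 12.8%). Without replicate 3 of RCdM5 and RCd5 these were 65, 44 and 26 genes, against 35.4%, 31.7% and 15.6% of all root genes. The leaf rule applied to roots was met by 13 of the 145 genes (9.52% of all root genes), or by 18 without those 2 libraries (11.4%). Only Novelgene1585 and Novelgene2942 were among the 150 largest root scores, at places 17 and 118, both with a 0 in several libraries.

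Root changes between days were tested in limma over all 17227 root genes, with Benjamini-Hochberg adjustment over all of them and a threshold of 0.05. Between RCd1 and RCd0, 22 of the 145 genes passed, 14 higher and 8 lower on day 1, or 15.2% where 9.36% of all root genes passed (4.46% higher and 4.89% lower). Gene 8_142961, without annotation, had 564, 592 and 619 FPKM in RCd1 against 239, 180.5 and 166 FPKM in RCd0. All RCd1 libraries were far above all RCd0 libraries, and the log2 difference was 1.61 (SE 0.15) with an adjusted p = 7.49e-05 by limma. Gene 8_55741 had 12.2, 13.96 and 12.7 FPKM in RCd1 against 2.64, 4.06 and 1.24 FPKM in RCd0, with no overlap and a log2 difference of 2.01 (SE 0.39, adjusted p = 0.00582, limma). Gene 1_99420 had 11.9, 17.8 and 20.1 FPKM in RCd1 against 5.87, 4.16 and 6.29 FPKM in RCd0, and its difference was 1.44 (SE 0.21) with an adjusted p = 0.00128 by limma. The stimulus-response gene 6_72741 rose to 1087, 967 and 813 FPKM in RCd1, against 346, 439.7 and 387 FPKM in RCd0 (1.28, adjusted p = 0.00893, limma). The secondary metabolism gene 9_105960 rose to 823, 827 and 937 FPKM, against 493, 363 and 208 FPKM in RCd0 (1.36, adjusted p = 0.00323, limma). In leaves the day 0 and day 1 means of both genes lay within 0.5 of each other on the log2 scale, as the rule requires.

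Among the 8 that fell, gene 9_60020 had 112, 74.1 and 128 FPKM in RCd1 against 327, 315 and 302 FPKM in RCd0, a log2 difference of -1.61 (SE 0.33) with an adjusted p = 0.00692 by limma. The transport gene 6_69660 fell to 7.29, 9.08 and 8.96 FPKM in RCd1, against 21.4, 25.1 and 29.2 FPKM in RCd0 (-1.47, adjusted p = 0.0116, limma). Gene 5_162741 had the largest difference, -2.01 (SE 0.43), with 13.4, 24.5 and 7.05 FPKM in RCd1 against 59.4, 63.7 and 48.4 FPKM in RCd0 (adjusted p = 0.00975, limma). The groups of these genes did not overlap. The transcription gene 7_49061 was lower as well (-1.72, SE 0.44, adjusted p = 0.0239, limma), with 35.6, 16.7 and 10.2 FPKM in RCd1 against 55.9, 49.5 and 88.7 FPKM in RCd0. Its call was lost in 5 of 12 alternatives of the processing. The hormone gene 8_164760 rose only slightly, by 0.52 (SE 0.15, adjusted p = 0.0374, limma), with 65.7, 55.5 and 64.8 FPKM in RCd1 against 43.2, 45.3 and 39.96 FPKM in RCd0, and this call was lost in 8 of 12 alternatives. Leaving out a library gave 12 to 17 genes in place of 22, the fewest without RCd1 replicate 3 (12), RCd1 replicate 2 (13) and RCd0 replicate 2 or 3 (14 each). With the share of bases at Q30 or above, a measure of read quality, as a covariate 11 genes passed, and 7 passed when only these 2 groups were fitted.

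Between RCd5 and RCd1, 3 of the 145 genes passed (2.07%, against 2.55% of all root genes), and all were lower on day 5 (1.13% of all root genes were, and 1.42% were higher). Gene 8_55741 had 2.23, 1.54 and 1.18 FPKM in RCd5 against 12.2, 13.96 and 12.7 FPKM in RCd1, a log2 difference of -2.41 (SE 0.39) with an adjusted p = 0.00779 by limma. Gene 9_105960 had 385, 308 and 296 FPKM in RCd5, against 823, 827 and 937 FPKM in RCd1 (-1.39, SE 0.24, adjusted p = 0.0087, limma). Gene 6_72741 had 490.1, 459.8 and 324 FPKM in RCd5, against 1087, 967 and 813 FPKM in RCd1 (-1.18, SE 0.27, adjusted p = 0.0362, limma). In none of the 3 did the groups overlap, and each had been raised on day 1. Without replicate 3 of RCd5 and RCdM5 the differences were -2.28, -1.32 and -0.998 with adjusted p = 0.04, 0.0464 and 0.109 by limma, so that 6_72741 no longer passed (0.867% of all root genes did). None of the 3 passed with the Q30 covariate (0 genes), and 1 did when only these 2 groups were fitted.

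Between RCd5 and RCd0, 13 genes passed, 6 higher and 7 lower, or 8.97% where 5.47% of all root genes passed (2.50% higher and 2.98% lower). Novelgene3059 had 8.73, 5.66 and 8.68 FPKM in RCd5 against 2.02, 0.893 and 0.510 FPKM in RCd0, a log2 difference of 2.06 (SE 0.29) with an adjusted p = 0.00134 by limma. Gene 9_103760 of the plant-pathogen interaction pathway had 5.42, 4.57 and 4.63 FPKM in RCd5, against 0.972, 1.24 and 0.308 FPKM in RCd0 (1.71, SE 0.33, adjusted p = 0.00748, limma). Their RCd5 libraries were all above their RCd0 libraries. Gene 8_142961 had 484, 478 and 325 FPKM in RCd5, against 239, 180.5 and 166 FPKM in RCd0 (1.13, SE 0.15, adjusted p = 0.00118, limma). The protein kinase gene 8_75581 had 42.4, 38.04 and 41.7 FPKM in RCd5, against 22.6, 20.9 and 13.7 FPKM in RCd0 (1.09, SE 0.20, adjusted p = 0.00656, limma). Gene 6_113880, listed under cell communication, was higher by 1.51 (SE 0.38, adjusted p = 0.0318, limma), and the flavonoid gene 4_94000 lower, at -1.32 (SE 0.31, adjusted p = 0.0252, limma). Gene 0_5501, with an RNA synthesis term, was lower in RCd5 with 57.6, 35.2 and 57.4 FPKM, against 106, 92.8 and 117 FPKM in RCd0 (-1.09, SE 0.20, adjusted p = 0.00664, limma). Without replicate 3 of RCd5 and RCdM5, 6 genes passed (3.28% of all root genes did), 4 higher and 2 lower: Novelgene3059 (1.97), 9_103760 (1.74), 8_142961 (1.31), 8_75581 (1.07), 0_5501 (-1.20) and 2_55000 (-1.14). Genes 6_113880 and 4_94000 then had adjusted p = 0.0848 and 0.113 by limma. Leaving out 1 library gave 6 genes without RCd0 replicate 3 or RCd5 replicate 2 and 8 without RCd0 replicate 1 or RCd5 replicate 3. The Q30 covariate left 0 and a fit of these 2 groups alone 2.

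With melatonin, 3 of the 145 genes passed between RCdM1 and RCdM0, 2 higher and 1 lower (2.07%, against 1.21% of all root genes, 0.372% higher and 0.842% lower). Gene 8_142961 had 496, 454 and 485 FPKM in RCdM1 against 182, 178 and 194 FPKM in RCdM0, with no overlap and a log2 difference of 1.37 (SE 0.15, adjusted p = 0.000811, limma). It passed in all 12 alternatives here and between RCd1 and RCd0. Genes 1_99420 (0.98, SE 0.21, adjusted p = 0.0436) and 6_19520 (-1.49, SE 0.33, adjusted p = 0.045) were near the limma threshold and lost it in 10 and 8 of 12 alternatives. Between RCdM5 and RCdM0, 6 genes were higher and 1 was lower (4.83%, against 3.08% of all root genes, 2.04% higher and 1.04% lower). Gene 8_142961 had 461, 413 and 457 FPKM in RCdM5, against 182, 178 and 194 FPKM in RCdM0 (1.26, SE 0.15, adjusted p = 0.000498, limma). Gene 1_99420 had 8.95, 11.6 and 13.5 FPKM in RCdM5, against 3.503, 3.38 and 3.81 FPKM in RCdM0 (1.42, SE 0.21, adjusted p = 0.0028, limma). The hormone gene 8_164760 was the 1 that fell, to 34.9, 47.5 and 37.2 FPKM in RCdM5, against 73.5, 69.5 and 82.4 FPKM in RCdM0 (-0.91, SE 0.15, adjusted p = 0.00418, limma). In leaves its level was higher on day 5 in both treatments. These 3 were the genes that still passed without replicate 3 of RCdM5 and RCd5 (1.67% of all root genes did), with log2 differences of 1.24, 1.30 and -0.86, and 3 genes also passed when RCdM5 replicate 3 or RCdM0 replicate 1 alone was left out. Between RCdM5 and RCdM1, genes 9_60020 (1.56, SE 0.33, adjusted p = 0.045) and 6_69660 (1.54, SE 0.33, adjusted p = 0.0466) were higher by limma (1.38%, against 0.702% of all root genes, 0.598% higher and 0.104% lower), and neither passed without replicate 3 of RCdM5 and RCd5 (0.0466% of all root genes did). Both had been lower in RCd1 than in RCd0. With the Q30 covariate 1 gene passed between RCdM1 and RCdM0 and none for the other 2 comparisons.

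**Figure D5:**
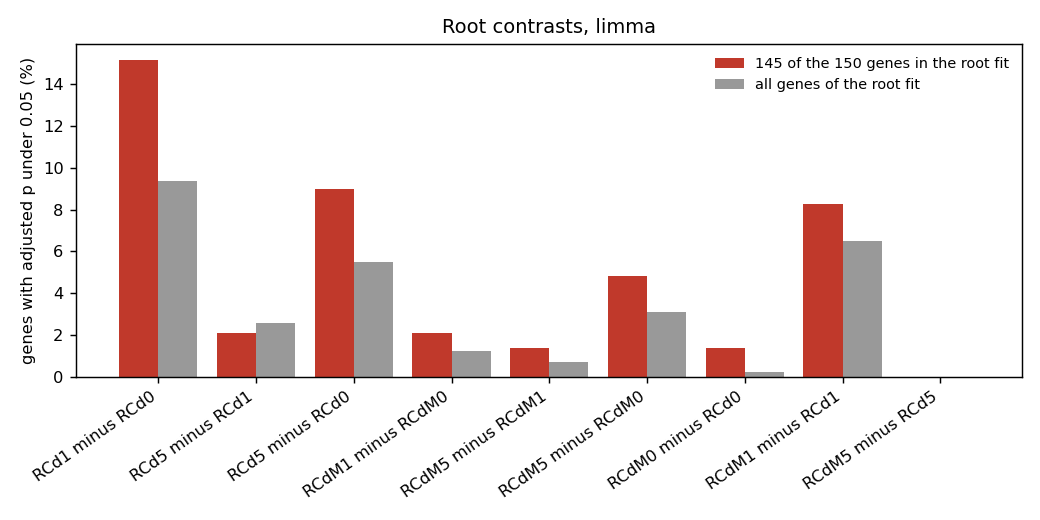
Percent of genes with an adjusted p under 0.05 by limma in the 9 root comparisons, for the 145 genes of the set tested in roots (red bars) and for all 17227 root genes (grey bars). The largest red bar is 15.2% for RCd1 minus RCd0, beside 9.36% of all root genes, and no gene of either kind passed for RCdM5 minus RCd5.

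The effect of melatonin on root levels was compared on each day. On day 0, 2 of the 145 genes passed, both higher in RCdM0 (1.38%, against 0.244% of all root genes, 0.168% higher and 0.0755% lower). Gene 3_6681 had 545, 548 and 449 FPKM in RCdM0 against 292, 206 and 175 FPKM in RCd0, a log2 difference of 1.22 (SE 0.23) with an adjusted p = 0.0485 by limma. Gene 8_164760 had 73.5, 69.5 and 82.4 FPKM in RCdM0, against 43.2, 45.3 and 39.96 FPKM in RCd0 (0.79, SE 0.15, adjusted p = 0.0485, limma). Neither had overlapping groups, but 8_164760 passed in none of 12 alternatives (adjusted p 0.0502 to 0.235) and 3_6681 in 1 of them. On day 1, 7 genes were higher and 5 lower in RCdM1 (8.28%, against 6.50% of all root genes, 4.07% higher and 2.43% lower). The copper-binding gene 8_71281 had 4.68, 6.51 and 3.54 FPKM in RCdM1 against 0.622, 0.310 and 0.338 FPKM in RCd1, a log2 difference of 2.03 (SE 0.39) with an adjusted p = 0.0311 by limma. The study lists it as a laccase gene with higher root levels under melatonin on each sampled day. Here its difference was 1.52 on day 0 (SE 0.39, adjusted p = 0.0848, limma). On day 5 it was 0.43, or 0.61 without replicate 3 of RCdM5 and RCd5, and it passed on neither of these days. Gene 9_7940 had 7.18, 8.29 and 10.7 FPKM in RCdM1, against 1.86, 0.351 and 0.718 FPKM in RCd1 (2.35, SE 0.58, adjusted p = 0.0374, limma). All RCdM1 libraries of these genes were above all RCd1 libraries.

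Gene 4_165541 had 28.4, 45.6 and 57.9 FPKM in RCdM1, against 12.9, 7.32 and 5.87 FPKM in RCd1 (2.22, SE 0.54, adjusted p = 0.0364, limma). The phenylpropanoid gene 7_16000 had 2147, 2880 and 4141 FPKM in RCdM1, against 1722, 1019 and 1314 FPKM in RCd1 (1.16, SE 0.24, adjusted p = 0.0317, limma). Among the lower ones, gene 6_72741 had 531, 432 and 237 FPKM in RCdM1, against 1087, 967 and 813 FPKM in RCd1 (-1.32, SE 0.27, adjusted p = 0.0317, limma). The groups of these genes were separate as well. Over all 145 genes the median log2 difference was -0.22, against -0.04 over all root genes, and 35.9% of the genes were higher in RCdM1, against 45.2% of all root genes. No gene of the 145 passed when any of RCdM1 replicate 2 or 3 or RCd1 replicate 2 or 3 was left out, 8 passed without RCd1 replicate 1 and 24 without RCdM1 replicate 1. The number of genes that passed on day 1 thus hangs on single libraries, and it was 0 with the Q30 share as a covariate. The shares of all root genes in these settings are not given here, so the swing is not read as particular to the 145 genes.

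On day 5 none of the 145 genes passed between RCdM5 and RCd5, and no gene of all 17227 did (0% by limma). At an unadjusted p under 0.05 there were 5 of the 145, against 4.10% of all root genes. Without replicate 3 of both groups none passed either (0.0233% of all root genes did), and 21 of the 145 had an unadjusted p under 0.05, against 13.6% of all root genes. For 2 of the genes that were higher in RCdM1, replicate 3 again went against its label. Gene 9_7940 had 4.51, 10.96 and 2.24 FPKM in RCdM5 against 1.300, 1.83 and 9.68 FPKM in RCd5, and gene 4_165541 had 28.9, 63.9 and 21.2 FPKM in RCdM5 against 16.6, 19.2 and 60.04 FPKM in RCd5. In both, replicates 1 and 2 were higher in RCdM5 than the same replicates of RCd5, and replicate 3 was lower. Whether melatonin altered a change between days was tested as a difference between changes, and none of the 145 genes passed for any of the 3 intervals (0 genes by limma, against 0% of all root genes). At an unadjusted p under 0.05 there were 9, 26 and 18 genes for day 0 to 1, day 1 to 5 and day 0 to 5, against 5.86%, 13.1% and 8.22% of all root genes, and without replicate 3 of RCdM5 and RCd5 the last 2 counts were 8 (6.46% of all root genes) and 7 (5.06%). Of the hormone pathway list of 38 genes, which the study picked on these libraries, 7 were higher and 2 lower in RCdM1 than in RCd1, against 4.07% and 2.43% of all root genes. In RCdM5, 3 of the 38 were lower than in RCdM0, against 1.04% of all root genes, and 3 were also lower without replicate 3 of RCdM5 and RCd5, against 0.541%. Of the 16 genes of the stilbenoid list, 3 were lower in RCd1 than in RCd0 (4.89% of all root genes were) and 1 was lower in RCd5 than in RCd0 (2.98%), which no longer passed without those libraries.

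The isoforms of the genes were compared between days. 65 of the 150 genes have 1 isoform in the file (43.3%, against 35.3% of all leaf genes). Of 81 genes with several isoforms and at least 1 FPKM in every leaf group, 60 (74.1%) kept the same leading isoform in all 6 leaf groups, against 79.3% of 10198 genes. The leading isoform held a median 72.3% of the gene's FPKM on day 5 and 71.6% before. Only gene 3_26460 (biosynthesis of secondary metabolites) had a leading isoform on day 5 in both treatments that led on neither earlier day. Its isoform novel05 had 7.87 FPKM in LCdM5 against 0.138 in LCdM0 and 1.83 in LCdM1, and 5.78 FPKM in LCd5 against 1.63 in LCd0 and 0.884 in LCd1. The 130 genes with a reference identifier lay on all linkage groups, with 21 on linkage group 5 (16.2%, against 13.9% of all leaf genes), 20 on 8 (15.4% against 13.1%), 19 on 9 (14.6% against 10.7%) and 11 on 4 (8.46% against 12.7%). Some identifiers lay within 500 of each other on the same linkage group, among them 5_8861, 5_8960 and 5_9001, and 8_142961 and 8_143020. How often this is so over all leaf genes was not counted, and positions on the genome were not available.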

How the data were processed

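The 36 libraries gave 1 table of FPKM per isoform, deposited by the authors. The submitters' processing notes name Bowtie2 2.0.6 and TopHat2 2.0.12, and by the methods of the study reads were aligned to Iso-Seq consensus transcripts, counted per gene with HTSeq and divided by length. How the values per isoform were made was not given there. FPKM hides depth, so no interval for counting error is given. Isoforms were summed per gene and put on the log2(FPKM + 1) scale, which understates the change of low genes. Genes with at least 1 FPKM in 3 of the 18 libraries of a tissue were fitted in limma 3.58.1 (R 4.3.3; lmFit, contrasts.fit, eBayes with trend), 1 mean per group, with Benjamini-Hochberg adjustment over all genes of the fit. The fit was also run on simulated data with independent noise for each gene and library. That run does not cover libraries in which many genes move together or that go against their labels. Other steps used Python 3.11.15, pandas 2.3.3, numpy 2.4.6 and matplotlib 3.10.9.

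The set of genes and the gene lists were chosen with earlier results of these data known. Named were the 12 genes with the largest score, up to 30 annotated genes in order of score and 5 either side of the limit. The 3 highest and 3 lowest in roots were named too, with exceptions stated. For the root comparisons a selection of the genes that passed is described, not always those with the largest change. Among those left out were 3_83180 and 2_108880 for RCd5 minus RCd0 (log2 differences -1.18 and -1.17). For RCdM1 minus RCd1 they included 3_76580 and 6_19520 (1.44 and -1.27). Annotation came from the tables of the study, whose gene cells may be incomplete. Tried as alternatives were a pseudocount of 0.1, no filter, median-ratio scaling, only the groups compared, a replicate block, the share of bases at Q30 from the study's sequencing summary as a covariate, isoforms in place of genes, and each library left out. Leaving out replicate 3 of RCdM5 and RCd5 together was added after seeing the data. Same-numbered LCdM1 and LCd1 libraries deviated together (r of 0.32, 0.27 and 0.14), which pairs them by the data alone, and 0 genes passed with and without the block.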

Additional observations from a re-analysis of the deposited data

How the results depend on the processing

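The choice of the 150 genes hung on its settings. It shared 114 genes with the original at a pseudocount of 0.1, 147 with no filter, 137 with scaling, 89 with group medians, 63 with a limit of 0.25 between day 0 and day 1, and 90 with a limit of 1. Leaving out libraries or 1 replicate number gave 68 to 137. Of 64 calls in roots, 61 were kept with scaling, 58 with the pseudocount of 0.1, 55 with no filter, 49 with the replicate block, 21 with only the groups compared and 12 with the Q30 covariate, and none turned its direction. The numbers of the 150 genes that passed were as follows. The share of all genes in each setting is not given beside them, so they do not set these genes apart. For RCd1 minus RCd0 (22) there were 11 with Q30, 7 with only these groups and 12 to 17 with a library left out. For RCd5 minus RCd1 (3) there were 0, 1 and 2 to 3, and for RCd5 minus RCd0 (13) there were 0, 2 and 6 to 11 in the same order. For RCdM1 minus RCdM0 (3) there was 1 each with no filter, Q30, isoforms and only these groups, and 1 to 2 with a library left out. For RCdM5 minus RCdM1 (2) there were 0 with the pseudocount, no filter, Q30, isoforms and only these groups, 1 with scaling and 0 to 1 with a library left out. For RCdM5 minus RCdM0 (7) there were 0 with Q30, 2 with only these groups and 3 to 8 with a library left out. For RCdM0 minus RCd0 (2) there were 0 with the pseudocount, no filter, scaling, isoforms and only these groups, 1 with Q30 and 0 to 1 with a library left out. For RCdM1 minus RCd1 (12) there were 0 with Q30, 1 with isoforms and 0 to 24 with a library left out. For LCdM5 minus LCd5 (0) there were 0 to 2. Without replicate 3 of RCdM5 and RCd5, an alternative chosen after seeing the data, the counts were 2 for RCd5 minus RCd1, 6 for RCd5 minus RCd0, 0 for RCdM5 minus RCdM1 and 3 for RCdM5 minus RCdM0, and 11 of 25 calls were kept. The causes were not tested.

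Same-numbered deviations correlated at -0.33 to 0.32 in leaves (12 of 45 pairs over 0.1) and -0.41 to 0.35 in roots (10 of 45), so the numbers gave no pairing in general. Among the groups compared, all 3 pairs were over 0.1 only for LCdM1 with LCd1. With the replicate block 19 genes passed for RCd1 minus RCd0, 3 for RCd5 minus RCd1, 13 for RCd5 minus RCd0, 2 for RCdM1 minus RCdM0, 1 for RCdM5 minus RCdM1, 8 for RCdM5 minus RCdM0, 0 for RCdM0 minus RCd0, 10 for RCdM1 minus RCd1, and 0 in each of the 3 leaf comparisons.

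Groups of 3 libraries, FPKM without read counts and the lack of a group without Cd limit these results. The 26 genes under 2 FPKM in every day 0 and day 1 group also rest on low values before day 5. Whether they are less certain than the others was not tested.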
